A study of Homo sapiens with 4 samples.

Results

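The transcripts described here encode 46 enzymes of central carbon metabolism, those of glycolysis, lactate formation, the pentose phosphate pathway, the pyruvate dehydrogenase complex, the tricarboxylic acid (TCA) cycle with its cytosolic counterparts, and the reactions that feed the cycle. They were chosen by gene symbol from a list of such enzymes, 46 of the 63677 genes in the table. The rule itself used no difference between the groups, but the list was chosen with earlier results of these data known. Where a symbol had several entries, as 7 did, the entry with the highest mean over the libraries was kept, and the other entries were at 0. RNA sequencing was carried out on MDA-MB-231, an established human triple-negative breast cancer cell line with a high level of the receptor tyrosine kinase AXL. Transfection was with a control siRNA (siCt, 2 libraries) or a pool of siRNAs directed at AXL (siAXL, 2 libraries), and the siRNA was the only difference that the labels give between the groups. The labels do not say whether the libraries of a group came from separate cultures, so the p-values measure only the spread between these libraries, which may be technical.

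Glycolysis splits glucose into pyruvate in the cytosol and yields ATP and NADH. Lactate dehydrogenase then turns pyruvate into lactate and regenerates NAD+, whereas the pyruvate dehydrogenase complex turns it into acetyl-CoA for the TCA cycle in mitochondria. The pentose phosphate pathway branches off early in glycolysis and makes NADPH and ribose phosphate, the sugar of nucleotides. Many tumor cell lines, breast cancer lines among them, are known for a high glycolytic rate with release of lactate even when oxygen is present, and glycolytic genes are well-known targets of the hypoxia-inducible factors.

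The libraries held 39574387 to 44585773 reads counted on genes, and of the 46 genes the lowest was ENO3, with 326 reads in a library, while 41 had at least 1000 reads in every library. Averaged over all 16064 genes tested, the spread within a group exceeded sampling noise. The mean chi-square per gene was 21.6 for the pair of siCt libraries and 19.6 for the siAXL pair. Genes with many reads that differ between the libraries weigh most in this mean, such as the mitochondrially encoded ones below. It does not describe the spread of each enzyme transcript. Levels are given as normalized counts, that is, reads divided by a size factor for each library. The targeted gene AXL (ENSG00000167601) measured 29189 and 30617 normalized counts in siCt 1 and 2, and 8658 and 7141 in siAXL 1 and 2, and its log2 fold change was -1.93 with a standard error of 0.0918 and a limma adjusted p of 0.000585. Both siAXL libraries were far under both siCt libraries. Among markers of the line, the mesenchymal gene VIM measured 92547 and 86751 in the siCt libraries and 99296 and 96112 in the siAXL libraries, and the hormone receptors ESR1 and PGR were at or under 3.25 normalized counts in every library. ERBB2, the receptor tyrosine kinase HER2, was present at 3089 and 2949 in the siCt libraries and 3680.0 and 3536 in the siAXL libraries and was called higher (log2 fold change 0.26, limma adjusted p = 0.0258), and CD44, a surface marker of the line, measured 36518 and 36314 in the siCt libraries and 33968 and 36032 in the siAXL libraries. The epithelial genes were low but present. CDH1 was at 90.1 and 94.3 in the siCt libraries and 36.9 and 22.6 in the siAXL libraries and was called lower (log2 fold change -1.64, limma adjusted p = 0.00847). EPCAM was at 565 and 625 in the siCt libraries and 711 and 771 in the siAXL libraries and was not called (log2 fold change 0.32, limma adjusted p = 0.0513). Of 13 markers of leukocytes, endothelium and fibroblasts, the endothelial marker PECAM1 was at 0 in all 4 libraries. The summed level of the 13 ranged from 2199.7 to 2341 normalized counts in siCt and from 2227 to 2342 in siAXL, nearly all of it from the fibroblast list, in which COL1A2 and PDGFRB were higher and COL1A1 was lower. The leukocyte list alone summed to 103 and 124 normalized counts in siCt and 149.6 and 171 in siAXL, mostly from CD14, and its part in the results below was not tested. Mitochondrially encoded transcripts took 3.70% and 2.11% of the reads in siCt 1 and 2 and 3.78% and 2.28% in siAXL 1 and 2, so that they followed the replicate number and not the siRNA. In bulk RNA, fewer cells of a kind and less RNA per cell cannot be told apart.

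Of the 46 enzyme transcripts, 8 rose and 7 fell in siAXL at an adjusted p under 0.05, or 32.6% of them. Among all 16064 genes tested, 18.7% were called, 10.8% higher and 7.91% lower. Transcripts of these enzymes are abundant, and among the 9949 genes with a mean at least as high as that of the lowest enzyme, 25.2% were called, 14.1% higher and 11.1% lower. That lowest enzyme was ENO3, with a mean of 402 normalized counts, so these genes are not matched to the enzymes in level. The changes were small, from 14.7% to 38.9% above the siCt mean for the 8 that rose, while the 7 others fell by 13.3% to 23.0%. The direction differed by pathway. In glycolysis with lactate dehydrogenase 7 of 18 rose and 1 fell, and the median log2 fold change was 0.14. In the pentose phosphate pathway, the pyruvate dehydrogenase complex and the TCA cycle together 0 of 25 rose and 6 fell, and the median was -0.14. The median over all 46 was -0.061 and over all genes tested -0.0022. The counts of higher and lower transcripts depended on single libraries, and were 4 and 3 without siCt 2, 4 and 0 without siAXL 1, 2 and 0 without siAXL 2, and 6 and 6 without siCt 1. Without the filter for low counts they were 5 and 1, where 4 of the 5 higher ones belonged to glycolysis with lactate dehydrogenase. No test of the difference between the groups of enzymes was made, since they were laid out with earlier results of these data known.

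**Figure D1:**
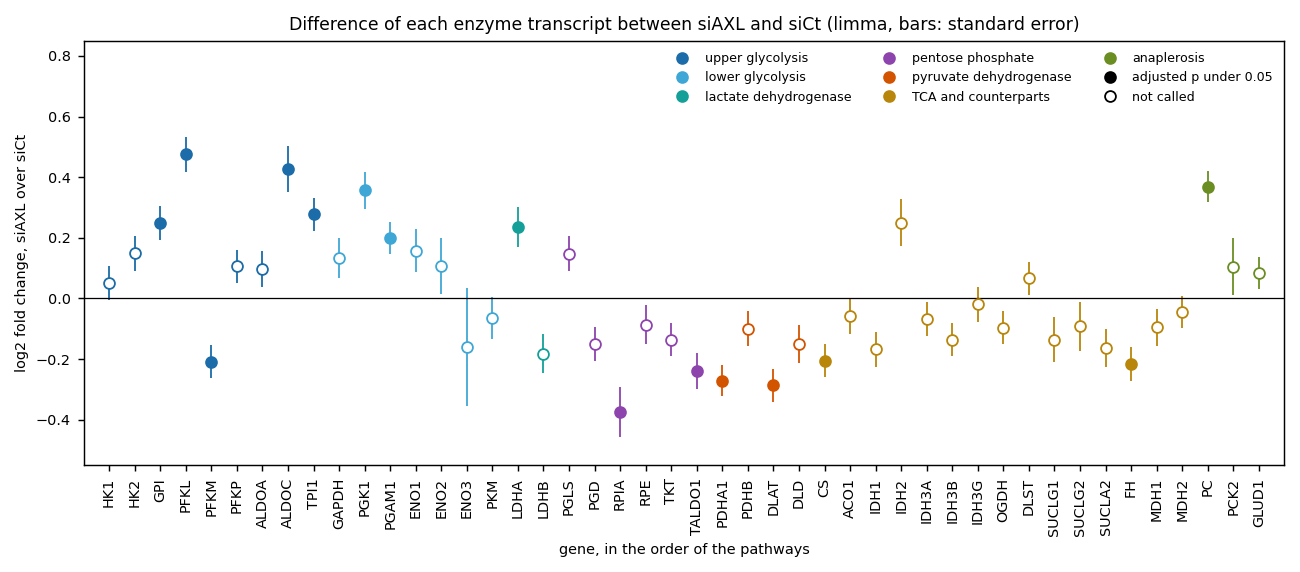
The log2 fold change of siAXL over siCt (vertical axis) for each of the 46 enzyme transcripts (horizontal axis, in pathway order), with the standard error from limma as bars and filled circles for an adjusted p under 0.05. Glycolytic transcripts lie mostly above 0, with PFKL highest at 0.47, and those of the pentose phosphate pathway, the pyruvate dehydrogenase complex and the TCA cycle mostly below it, with RPIA lowest at -0.37.

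Library by library, both siAXL libraries lay above both siCt libraries for 17 transcripts, or 12 of the 18 of glycolysis with lactate dehydrogenase, and below them for 22, or 19 of the 25 of the 3 other pathways. Over all genes tested, 30.6% lay above and 30.5% below in this way, or 61.2% in either. Neither group of libraries overlapped the other in the 15 called transcripts, whose values in each library are shown in the plot of percentages of the siCt mean.

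**Figure D2:**
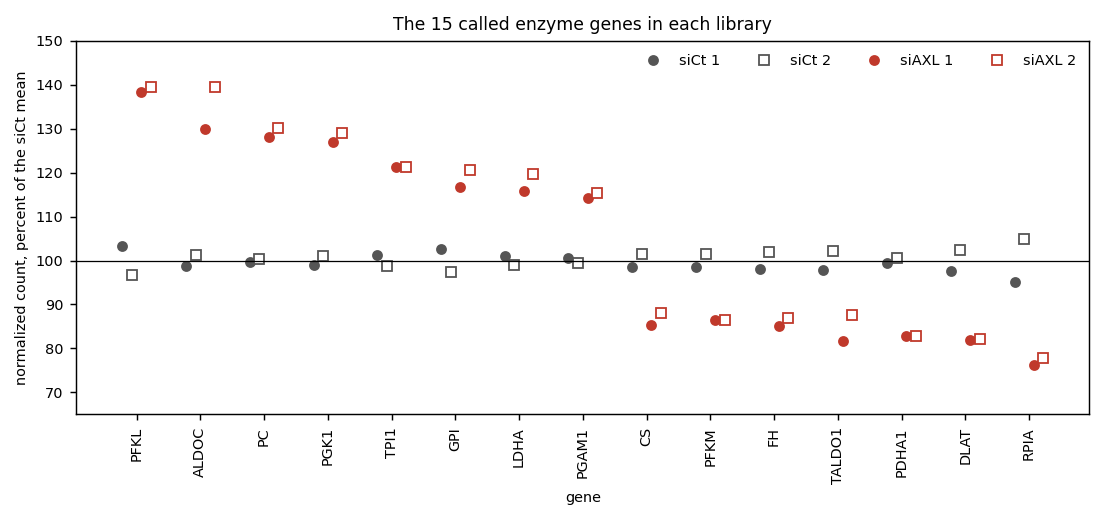
Normalized count in each library as a percentage of the siCt mean (vertical axis) for the 15 transcripts with an adjusted p under 0.05 (horizontal axis), ordered by log2 fold change; gray marks siCt, red siAXL, circles library 1 and squares library 2. The siAXL libraries of the 8 higher transcripts and those of the 7 lower ones are on opposite sides of the siCt libraries, whose mean is 100% by definition.

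The start regions of the transcripts were read from RefSeq (GRCh38.p14, 250 bases before to 50 after each annotated start), which held 45 of the 46 genes, OGDH being the one without an entry. The letters ACGTG, the core of a common form of the hypoxia response element, were counted on both strands, so that CACGTG, which reads the same on both, counts on each. They occurred in a window of 6 of the 8 genes that rose (75.0%), 2 of the 7 that fell (28.6%) and 9 of the 30 that were not called (30.0%), beside 32.1% of all 10282 tested genes with an entry. By pathway they occurred in 11 of 18 genes of glycolysis with lactate dehydrogenase and in 22.2% of the other 27. Of the 8 genes that rose, 7 belong to this pathway. Its genes ALDOA, GAPDH, HK2, ENO2, PFKP and PFKM did not rise and hold the letters too. A link of the letters with the rise cannot be told apart from one with the pathway. Genes with several annotated starts have more chances to hold the letters, and by window the share was 6 of 12 for the genes that rose, 3 of 13 for those that fell and 25.03% over the windows of tested genes. For GCGTG, another form of the core, the shares were 62.5% of the genes that rose and 57.1% of those that fell, beside 57.6% of the tested genes. A match is a description of the letters and no evidence of binding.

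Stretches upstream of a RefSeq start that hold no exon annotated in GENCODE 29 are printed for 4 of the 6 genes that rose and held ACGTG, since they show where the letters stand in a kinase of lower glycolysis, the lactate dehydrogenase subunit, the carboxylase and the triose phosphate isomerase. Capitals mark ACGTG on either strand, the sequences run 5′ to 3′ on the strand of the gene, and they are chrX:78103998-78104173 (plus strand) for PGK1, chr11:18394313-18394387 (plus) for LDHA, chr11:66958384-66958633 (minus) for PC and chr12:6867855-6868099 (plus) for TPI1. They end 74, 175, 0 and 5 bases before the start in this order. Only stretches that hold the letters are printed, and the further windows of LDHA, PC and TPI1 hold 0 ACGTG.
PGK1: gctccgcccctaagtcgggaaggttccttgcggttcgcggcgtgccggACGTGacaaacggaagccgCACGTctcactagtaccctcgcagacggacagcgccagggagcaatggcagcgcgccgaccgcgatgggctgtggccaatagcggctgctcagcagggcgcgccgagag
LDHA: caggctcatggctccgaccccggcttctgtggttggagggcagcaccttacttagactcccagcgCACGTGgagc
PC: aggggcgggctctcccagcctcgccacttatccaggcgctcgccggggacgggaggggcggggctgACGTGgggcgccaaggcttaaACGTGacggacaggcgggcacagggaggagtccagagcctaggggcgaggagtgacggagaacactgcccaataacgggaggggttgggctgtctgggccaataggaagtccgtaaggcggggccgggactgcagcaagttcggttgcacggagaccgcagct
TPI1: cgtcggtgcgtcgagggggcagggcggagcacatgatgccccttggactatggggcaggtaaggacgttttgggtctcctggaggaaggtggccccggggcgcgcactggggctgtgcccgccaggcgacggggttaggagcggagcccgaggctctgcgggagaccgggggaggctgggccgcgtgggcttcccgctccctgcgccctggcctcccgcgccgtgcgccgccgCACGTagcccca
PGK1 and PC hold 2 places with the letters in these stretches, and LDHA and TPI1 hold 1 each, which in LDHA is the palindrome.

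The upper part of glycolysis, from hexokinase to triose phosphates, held 9 transcripts, of which 4 rose and 1 fell, with a median log2 fold change of 0.15. The share called was 55.6%, beside 18.7% of all genes and 25.2% of those at least as abundant as the lowest enzyme. The largest rise among all 46 was in PFKL (ENSG00000141959), the liver-type subunit of phosphofructokinase, the main regulated step of glycolysis. PFKL measured 5421 and 5079.5 normalized counts in siCt 1 and 2, and 7259.9 and 7327 in siAXL 1 and 2, or a mean of 5250.1 ± 241 in siCt and 7294 ± 47.7 in siAXL (SD, n = 2 each). Its log2 fold change was 0.47 with a standard error of 0.0570 and a limma adjusted p of 0.00360. The siAXL mean of PFKL was thus 38.9% above that of siCt, with hardly any difference between the siAXL libraries. The muscle-type subunit PFKM (ENSG00000152556) went the other way, at 3375 and 3477 normalized counts in siCt 1 and 2, and 2962 and 2966 in siAXL 1 and 2 (log2 fold change -0.21 with a standard error of 0.0550 and a limma adjusted p of 0.0402). PFKM shares 8.58% of its exon bases with SENP1 on the opposite strand, whose whole count was 43.9% of that of PFKM, and whether reads were assigned by strand is not given. PFKP, the platelet-type subunit and the most abundant of the family, measured 21799 and 21746 in the siCt libraries and 23628 and 23221 in the siAXL libraries and was not called (log2 fold change 0.11, limma adjusted p = 0.213), although its siAXL libraries did not overlap siCt.

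Downstream of phosphofructokinase, the brain-type aldolase ALDOC (ENSG00000109107), a low transcript, rose, with 718 and 737 in the siCt libraries and 945 and 1014 in the siAXL libraries (log2 fold change 0.43 with a standard error of 0.0760 and a limma adjusted p of 0.0120). ALDOA, the main aldolase and the most abundant transcript of upper glycolysis, was measured at 45576 and 46593 in the siCt libraries and 48274 and 50390.2 in the siAXL libraries (log2 fold change 0.098, limma adjusted p = 0.299) and was not called. TPI1 (ENSG00000111669), triose phosphate isomerase, which interconverts the products of aldolase, measured 27628 and 26929.6 normalized counts in siCt 1 and 2, and 33068 and 33068 in siAXL 1 and 2 (log2 fold change 0.28 with a standard error of 0.0550 and a limma adjusted p of 0.0169). Its siAXL libraries were nearly identical to each other and 21.2% above siCt in their mean. Upstream, GPI (ENSG00000105220), the isomerase that makes fructose phosphate from glucose phosphate, measured 13609.5 and 12939 normalized counts in siCt 1 and 2, and 15493 and 16019.5 in siAXL 1 and 2 (log2 fold change 0.25 with a standard error of 0.0564 and a limma adjusted p of 0.0260). GPI was separated between the groups, but siCt 1 and siCt 2 differed by more than the siAXL libraries did. The hexokinases, which trap glucose in the cell as its phosphate, were not called. HK2, the inducible form, had 5365 and 5473 in the siCt libraries and 5809 and 6210.1 in the siAXL libraries (log2 fold change 0.15, limma adjusted p = 0.120), without overlap. HK1, the widespread form, overlapped between the groups at 13701 and 14313 in the siCt libraries and 14291 and 14726 in the siAXL libraries (log2 fold change 0.051, limma adjusted p = 0.570). The calls of GPI, TPI1 and PFKM were lost without siCt 2, siAXL 1 or siAXL 2, with limma adjusted p up to 0.130, 0.0854 and 0.173, and that of ALDOC without siAXL 2 (limma adjusted p = 0.0648), while their log2 fold changes stayed within 0.21 to 0.28, 0.26 to 0.30, -0.23 to -0.19 and 0.38 to 0.48. DESeq2 on the reads did not call PFKM (adjusted p = 0.0635), and without the filter for low counts limma called neither GPI (adjusted p = 0.0734) nor PFKM (adjusted p = 0.0866).

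The lower part of glycolysis, from glyceraldehyde phosphate to pyruvate, held 7 transcripts, of which 2 rose and 0 fell, with a median of 0.13. The share called, 28.6%, was close to the 25.2% of genes at least as abundant as the lowest enzyme. PGK1 (ENSG00000102144), phosphoglycerate kinase, which makes the first ATP of the pathway, measured 67800.1 and 69288 normalized counts in siCt 1 and 2, and 86998 and 88469 in siAXL 1 and 2, or a mean of 68544 ± 1052 in siCt and 87734 ± 1041 in siAXL (SD, n = 2 each). Its log2 fold change was 0.36 with a standard error of 0.0615 and a limma adjusted p of 0.0110. The rise of 28.0% in PGK1 was the largest in this segment and separated the groups by many times the spread within either. PGAM1 (ENSG00000171314), the phosphoglycerate mutase of the next step, measured 18094 and 17869 normalized counts in siCt 1 and 2, and 20528 and 20734 in siAXL 1 and 2 (log2 fold change 0.20 with a standard error of 0.0526 and a limma adjusted p of 0.0410). The rise in PGAM1 was smaller, though again all 4 libraries sorted by siRNA.

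PKM, ENO1 and GAPDH, among the most abundant transcripts of all, did not pass the test. Only with the replicate number as a block were ENO1 and GAPDH called (limma adjusted p = 1.18e-05 and 0.000198), and the labels give no pairing. PKM, pyruvate kinase, which makes pyruvate in the last step, was the highest of all 46 by normalized count, at 176404 and 181725 in the siCt libraries and 170622 and 172050.0 in the siAXL libraries (log2 fold change -0.064, limma adjusted p = 0.574). PKM was thus slightly below siCt in both siAXL libraries, whereas GAPDH and ENO1 were slightly above it. GAPDH, which oxidizes glyceraldehyde phosphate and often serves as a reference gene, measured 118392 and 116597 in the siCt libraries and 126881 and 130788 in the siAXL libraries (log2 fold change 0.13, limma adjusted p = 0.208). No enolase, which forms phosphoenolpyruvate, was called. ENO1, the ubiquitous form, had 138599 and 144809 in the siCt libraries and 155680.0 and 160444 in the siAXL libraries (log2 fold change 0.16, limma adjusted p = 0.162). ENO2, the neuronal form, had 12396 and 10540.4 in the siCt libraries and 13097 and 11580.1 in the siAXL libraries (log2 fold change 0.11, limma adjusted p = 0.469), and ENO3, the muscle form, had 496 and 353 in the siCt libraries and 435 and 322 in the siAXL libraries (log2 fold change -0.16, limma adjusted p = 0.615). In both ENO2 and ENO3 library 1 was above library 2 in each group, and their groups overlapped. The call of PGAM1 was lost without any 1 of the 4 libraries, with limma adjusted p of 0.116 to 0.192 and log2 fold changes of 0.19 to 0.21, and without the filter for low counts (limma adjusted p = 0.0854), and that of PGK1 was lost without siAXL 2 (limma adjusted p = 0.0577, log2 fold change between 0.34 and 0.37 over the 4 omissions).

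Lactate dehydrogenase is a tetramer of A and B subunits, of which LDHA favors the making of lactate and LDHB the making of pyruvate. LDHA (ENSG00000134333) measured 105451 and 103447 normalized counts in siCt 1 and 2, and 121034 and 125090.0 in siAXL 1 and 2, or a mean of 104449 ± 1417 in siCt and 123062 ± 2868 in siAXL (SD, n = 2 each). Its log2 fold change was 0.24 with a standard error of 0.0657 and a limma adjusted p of 0.0471. LDHA was thus 17.8% higher in siAXL, with no overlap. LDHB stood at 18235 and 19501 in the siCt libraries and 16018 and 17253 in the siAXL libraries (log2 fold change -0.18, limma adjusted p = 0.0937) and was not called, though both siAXL libraries were below both siCt libraries. LDHA lost its call without any 1 of the 4 libraries, with limma adjusted p of 0.158 to 0.307 and log2 fold changes of 0.21 to 0.26, with a pseudocount of 8 (limma adjusted p = 0.0548) and without the low-count filter (limma adjusted p = 0.0880). LDHB passed the threshold when counts were scaled by library size or by upper quartile (limma adjusted p = 0.0449 and 0.0433). It also passed with the replicate number as a block (limma adjusted p = 6.04e-06), a pairing that the labels do not give.

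Because isozymes of a step differ in transcript length, their levels were compared as normalized counts per kilobase of the principal transcript. On that scale LDHA made up 78.6% and 77.2% in siCt 1 and 2 and 82.8% and 82.2% in siAXL 1 and 2 of the lactate dehydrogenase transcripts, and its mean share was 77.9% ± 1.05 in siCt and 82.5% ± 0.421 in siAXL (SD, n = 2 each). The shift of 4.59 points was larger than the spread within either group. Among the phosphofructokinases PFKL made up 16.7% and 15.8% in siCt 1 and 2 and 20.2% and 20.6% in siAXL 1 and 2, a gain of 4.16 points in the means. PFKM went from 9.60% to 7.50% and PFKP from 74.1% to 72.0% of the same family in their means, so PFKP remained the predominant subunit. HK2 supplied 19.7% and 19.3% in siCt 1 and 2 and 20.2% and 20.8% in siAXL 1 and 2 of the transcripts of HK1 and HK2. Its gain of 1.08 points, though without overlap, left HK1 at 79.5% of these transcripts in siAXL. ALDOC went from 1.26% to 1.58% of aldolase. ENO2 overlapped between the groups, at 6.87% and 5.67% in siCt 1 and 2 and 6.50% and 5.63% in siAXL 1 and 2 of enolase. With lengths over all annotated exons in place of the principal transcript, the gain of PFKL was 2.89 points.

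**Figure D3:**
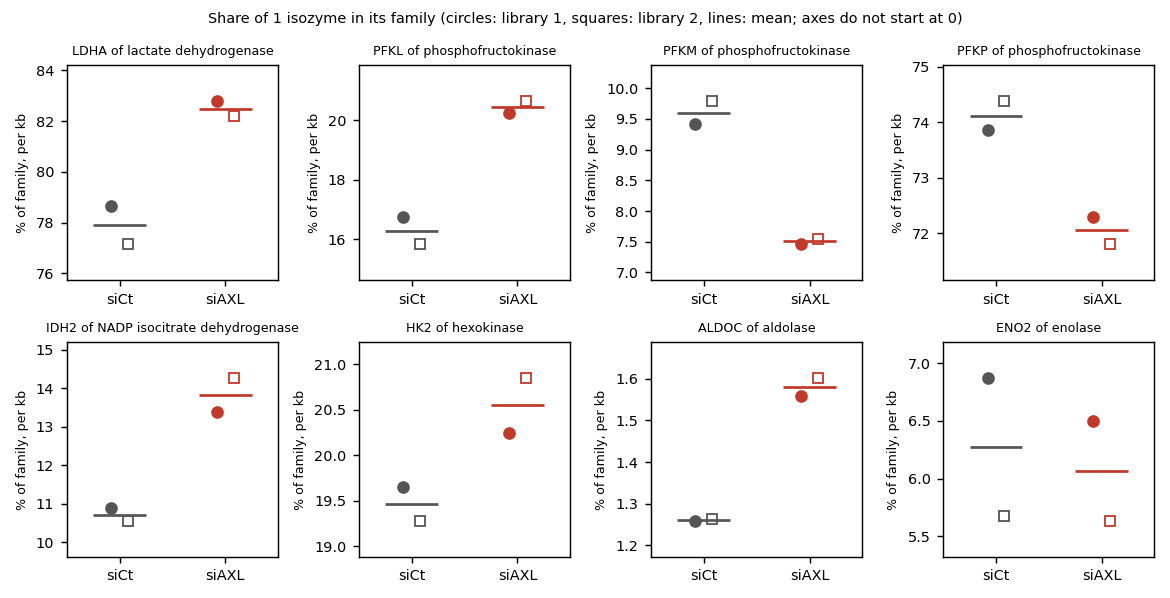
Share of an isozyme in the transcripts of its family per kilobase, in percent (vertical axes, not starting at 0), for siCt and siAXL libraries (horizontal axes); circles mark library 1, squares library 2 and lines the mean of 2. LDHA, PFKL, IDH2, HK2 and ALDOC take larger shares in siAXL and PFKM and PFKP smaller ones, without overlap, while ENO2 overlaps.

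Of the 6 pentose phosphate transcripts, 0 rose and 2 fell, 5 had a negative log2 fold change, and the median was -0.14. Among all genes tested, 7.91% were called lower, and 11.1% of those at least as abundant as the lowest enzyme. Both called transcripts belong to the non-oxidative branch, which converts sugar phosphates into one another. RPIA (ENSG00000153574), ribose phosphate isomerase, which makes ribose phosphate, measured 838 and 923 normalized counts in siCt 1 and 2, and 671 and 686 in siAXL 1 and 2, or a mean of 881 ± 60.2 in siCt and 678 ± 10.4 in siAXL (SD, n = 2 each). Its log2 fold change was -0.37 with a standard error of 0.0815 and a limma adjusted p of 0.0230. RPIA fell by 23.0%, the most of the 46, and its siAXL libraries were close together well under siCt. TALDO1 (ENSG00000177156), transaldolase, which returns carbon to glycolysis, measured 9188 and 9588 normalized counts in siCt 1 and 2, and 7677 and 8232 in siAXL 1 and 2 (log2 fold change -0.24 with a standard error of 0.0597 and a limma adjusted p of 0.0339). TKT, transketolase, the partner of transaldolase and the most abundant transcript of the pathway, had 22097 and 23133 in the siCt libraries and 20642 and 20514 in the siAXL libraries (log2 fold change -0.14, limma adjusted p = 0.135) and was not called, without overlap. PGLS, a lactonase of the oxidative branch, was the 1 of the 6 with a positive log2 fold change (0.15, limma adjusted p = 0.127). PGD and RPE lay at -0.15 and -0.086. RPIA and TALDO1 lost their calls without siCt 2, siAXL 1 or siAXL 2, with limma adjusted p up to 0.0929 and 0.202 and log2 fold changes of -0.44 to -0.30 and -0.29 to -0.19. Without the low-count filter their limma adjusted p were 0.0660 and 0.0955.

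All 4 transcripts of the pyruvate dehydrogenase complex were lower in both siAXL libraries, with a median of -0.21, and 2 of them were called. Over all genes tested, 30.5% lay below siCt in this way and 7.91% were called lower. PDHA1 (ENSG00000131828), the E1 alpha subunit, which carries the regulatory phosphorylation sites, measured 5205 and 5276 normalized counts in siCt 1 and 2, and 4338 and 4346 in siAXL 1 and 2 (log2 fold change -0.27 with a standard error of 0.0521 and a limma adjusted p of 0.0154). DLAT (ENSG00000150768), the E2 core subunit, which transfers the acetyl group to coenzyme A, measured 6425 and 6744 normalized counts in siCt 1 and 2, and 5388 and 5402 in siAXL 1 and 2, or a mean of 6584 ± 226 in siCt and 5395 ± 9.91 in siAXL (SD, n = 2 each). Its log2 fold change was -0.29 with a standard error of 0.0545 and a limma adjusted p of 0.0149. PDHA1 thus fell by 17.1% and DLAT fell by 18.1%, and in both the siAXL libraries differed from each other by under 1%. PDHB, the E1 beta subunit, had 5581 and 5881 in the siCt libraries and 5234 and 5459 in the siAXL libraries (log2 fold change -0.10, limma adjusted p = 0.271). DLD, the E3 subunit shared with other dehydrogenase complexes and the most abundant of the 4, had 6946 and 7564 in the siCt libraries and 6432 and 6639 in the siAXL libraries (log2 fold change -0.15, limma adjusted p = 0.138). Neither PDHB nor DLD was called, though in neither did the groups overlap. PDHA1 shares 21.3% of its exon bases with MAP3K15 on the opposite strand, whose whole count was 7.26% of that of PDHA1. Without siAXL 1 or siAXL 2 the calls of PDHA1 and DLAT were lost (limma adjusted p up to 0.0780 and 0.0692, log2 fold changes of -0.28 to -0.26 and -0.32 to -0.25), and without the low-count filter that of DLAT (limma adjusted p = 0.0511).

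Of the 15 transcripts of the TCA cycle and its cytosolic counterparts, 0 rose, 2 fell and 13 had a negative log2 fold change, with a median of -0.095. The share called, 2 of 15 or 13.3%, was below the 18.7% of all genes called in either direction. Both calls were lower, beside 7.91% of all genes called lower and 11.1% of those at least as abundant as the lowest enzyme. CS (ENSG00000062485), citrate synthase, the entry enzyme of the cycle, measured 7566 and 7784 normalized counts in siCt 1 and 2, and 6553 and 6761 in siAXL 1 and 2 (log2 fold change -0.21 with a standard error of 0.0535 and a limma adjusted p of 0.0388). FH (ENSG00000091483), fumarase, which makes malate, measured 3557 and 3693 normalized counts in siCt 1 and 2, and 3085 and 3152 in siAXL 1 and 2 (log2 fold change -0.22 with a standard error of 0.0560 and a limma adjusted p of 0.0376). CS fell by 13.3% and FH fell by 13.98%, each with no overlap. MDH2, the mitochondrial malate dehydrogenase and the highest of the 15 by normalized count, measured 9776 and 9838 in the siCt libraries and 9273 and 9748 in the siAXL libraries (log2 fold change -0.045, limma adjusted p = 0.615), and MDH1, its cytosolic counterpart, 5328 and 5608 in the siCt libraries and 4939 and 5304 in the siAXL libraries (log2 fold change -0.095, limma adjusted p = 0.329). Neither changed in a way that passed the test. The NAD-dependent isocitrate dehydrogenase subunits IDH3A, IDH3B and IDH3G had log2 fold changes of -0.067, -0.14 and -0.020, and only those of IDH3A and IDH3B kept the groups apart. The succinyl-CoA ligase subunits SUCLG1, SUCLG2 and SUCLA2 had -0.14, -0.092 and -0.16, with overlap in SUCLG2. DESeq2 did not call FH (adjusted p = 0.0515), and CS lost its call without any 1 of the 4 libraries (limma adjusted p of 0.0511 to 0.214, log2 fold changes of -0.23 to -0.18), as FH did without siCt 2, siAXL 1 or siAXL 2 (up to 0.189, log2 fold changes of -0.24 to -0.19). Without the low-count filter their limma adjusted p were 0.0894 and 0.0868.

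The NADP-dependent isocitrate dehydrogenases parted from each other. IDH1, the cytosolic enzyme, had 6482 and 6897 in the siCt libraries and 5888 and 6015 in the siAXL libraries (log2 fold change -0.17, limma adjusted p = 0.0829), while IDH2, the mitochondrial enzyme, had 875 and 898 in the siCt libraries and 1005 and 1104 in the siAXL libraries (log2 fold change 0.25, limma adjusted p = 0.0657). Neither was called, although the libraries of the 2 groups did not overlap in either gene. IDH2 was called by edgeR on the reads (adjusted p = 0.0493), and IDH1 by limma with scaling by library size or by upper quartile (adjusted p = 0.0395 and 0.0412). With the replicate number as a block, limma called both IDH1 and IDH2 (adjusted p = 0.000172 and 0.000546), but the labels give no pairing. Per kilobase, IDH2 made up 10.9% and 10.6% in siCt 1 and 2 and 13.4% and 14.3% in siAXL 1 and 2 of the pair, and its mean share was 3.11 points higher in siAXL. With lengths over all annotated exons the share of IDH1 fell by 4.71 points. The remaining TCA transcripts, ACO1, OGDH and DLST, were not called and lay between -0.096 and 0.067 on the log2 scale.

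Of the 3 transcripts of enzymes that feed or drain the cycle, 1 rose and 0 fell, beside 10.8% of all genes called higher. PC (ENSG00000173599), pyruvate carboxylase, which makes oxaloacetate from pyruvate, measured 7274 and 7334 normalized counts in siCt 1 and 2, and 9364 and 9503 in siAXL 1 and 2, or a mean of 7304 ± 42.5 in siCt and 9433 ± 98.4 in siAXL (SD, n = 2 each). Its log2 fold change was 0.37 with a standard error of 0.0513 and a limma adjusted p of 0.00554. PC was 29.1% higher in siAXL, and the 2 libraries of each group differed by under 2% of their mean. It shares 10.5% of its exon bases with LRFN4 on the opposite strand, whose whole count was 10.6% of that of PC. PFKL and PC were the 2 of the 15 called transcripts that kept their call under all 15 alternative settings, the omission of each library among them. PCK2 and GLUD1, the mitochondrial phosphoenolpyruvate carboxykinase and glutamate dehydrogenase, had log2 fold changes of 0.10 and 0.084 and were not called.

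Reads were also added up over the genes of a pathway. The 18 transcripts of glycolysis with lactate dehydrogenase took 1.87% of all reads in siCt 1 and in siCt 2, 1.99% in siAXL 1 and 2.01% in siAXL 2, and their summed normalized counts were 1.09 times as high in siAXL. The 6 pentose phosphate transcripts took 0.106% and 0.107% in siCt and 0.0941% and 0.0945% in siAXL, a ratio of 0.903. The 4 of the pyruvate dehydrogenase complex had a ratio of 0.871 and the 15 of the TCA cycle 0.940, while the 3 that feed or drain the cycle, mostly PC and GLUD1, had a ratio of 1.18, the farthest from 1. In each of these sums the libraries of the 2 groups did not overlap. Glycolysis outweighs the other pathways in summed counts, so all 46 together came to 1.07 times the siCt level.

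Regulators and further enzymes of the same pathways were read from a separate list of 56 symbols, of which 53 were in the table and 39 were tested. Of the 39, 5 rose and 6 fell (28.2%), beside 18.7% called among all genes tested and 25.2% among those at least as abundant as the lowest of the 46 enzymes, and the median was -0.059. Without siAXL 1 they were 4 and 3, and without siAXL 2 they were 3 and 4. Of the 11 called, 3 encode bifunctional enzymes, kinase and phosphatase in one chain, that set the level of the fructose bisphosphate that activates phosphofructokinase. PFKFB4 measured 3838 and 3387 normalized counts in siCt 1 and 2, and 5922 and 5866 in siAXL 1 and 2 (log2 fold change 0.71 with a standard error of 0.0708 and a limma adjusted p of 0.00236), and PFKFB3 5605 and 5034 normalized counts in siCt 1 and 2, and 7034 and 6749.5 in siAXL 1 and 2 (log2 fold change 0.38 with a standard error of 0.0676 and a limma adjusted p of 0.0125). Both were thus higher in both siAXL libraries, PFKFB4 by 63.1%. PFKFB2, another form, fell, with 2107 and 2444 in the siCt libraries and 1443 and 1415 in the siAXL libraries (log2 fold change -0.67 with a standard error of 0.0821 and a limma adjusted p of 0.00384). Part of its exons overlaps YOD1 on the opposite strand, whose count exceeded that of PFKFB2.

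Around pyruvate dehydrogenase, the kinase PDK1 rose and 2 phosphatases fell. PDK1, a kinase that inactivates the complex, measured 2652 and 2286 normalized counts in siCt 1 and 2, and 3272 and 3215 in siAXL 1 and 2 (log2 fold change 0.40 with a standard error of 0.0791 and a limma adjusted p of 0.0172). PDP1, the phosphatase that reactivates it, measured 10871 and 11457 normalized counts in siCt 1 and 2, and 8474 and 8448 in siAXL 1 and 2 (log2 fold change -0.40 with a standard error of 0.0547 and a limma adjusted p of 0.00524). A further phosphatase, PDP2, had a log2 fold change of -0.32 with a standard error of 0.0826 and a limma adjusted p of 0.0379, and PDHX, which anchors E3 to the complex, of -0.33 with a standard error of 0.0645 and a limma adjusted p of 0.0157. The other kinases PDK2, PDK3 and PDK4 were not called, at 0.029, -0.039 and 0.26. PDHX, like PFKFB2, shares exon bases with a gene on the opposite strand (APIP), whose count was 56.0% of its own.

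At the entry points, HKDC1, a hexokinase-like gene, showed the largest fall of the 39, with 1248 and 1474 in the siCt libraries and 723 and 738 in the siAXL libraries (log2 fold change -0.89 with a standard error of 0.0930 and a limma adjusted p of 0.00264). H6PD, which starts an oxidative pentose phosphate route in the endoplasmic reticulum, rose, with 6030.4 and 7039.6 in the siCt libraries and 8413 and 9545 in the siAXL libraries (log2 fold change 0.46 with a standard error of 0.0919 and a limma adjusted p of 0.0174). PGM1, which connects glycogen with glycolysis, rose as well, with 8677 and 8819 in the siCt libraries and 10272 and 10926 in the siAXL libraries (log2 fold change 0.28 with a standard error of 0.0564 and a limma adjusted p of 0.0186). In all 3 of these genes the libraries sorted by siRNA. HKDC1, PFKFB2, PFKFB4 and PDP1 were called under each of the 15 alternatives, and each of the other called genes lost its call under at least 2 of them. Without 1 library, calls were lost by PDK1 and PDHX (siAXL 1, limma adjusted p = 0.0512 and 0.0814), H6PD and PGM1 (siAXL 2, 0.0518 and 0.107) and PDP2 (siCt 2, siAXL 1 or siAXL 2, up to 0.158).

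**Figure D4:**
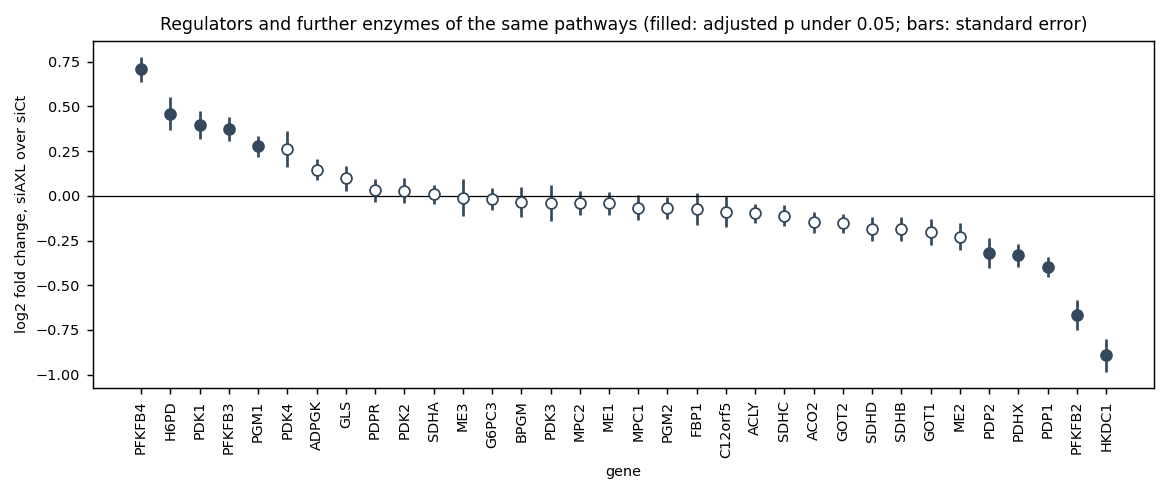
The log2 fold change of siAXL over siCt (vertical axis), with the limma standard error as bars, for 34 of the tested regulators and further enzymes with a mean of at least 100 normalized counts (horizontal axis, ordered by value, with 1 such gene not shown); filled circles have an adjusted p under 0.05. PFKFB4 is highest at 0.71 and HKDC1 lowest at -0.89.

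The pathways kept their sides of 0 under other scalings of the counts. Under each of the other settings the median of glycolysis with lactate dehydrogenase stayed above 0, between 0.11 and 0.17, and those of the pentose phosphate pathway, the pyruvate dehydrogenase complex and the TCA cycle stayed below 0, at -0.17 to -0.13, -0.25 to -0.17 and -0.14 to -0.055. Scaling by library size moved the median of all genes by -0.029, and with it 46.8% of all calls were higher in siAXL in place of 57.7%, while 8 of the 46 enzyme transcripts were higher and 9 lower. None of the 15 called transcripts changed direction under any of the settings, but these could hardly have reversed them. Their groups did not overlap, and the largest shift by scaling, -0.029, was small beside the smallest called log2 fold change, 0.20 in PGAM1.

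**Figure D5:**
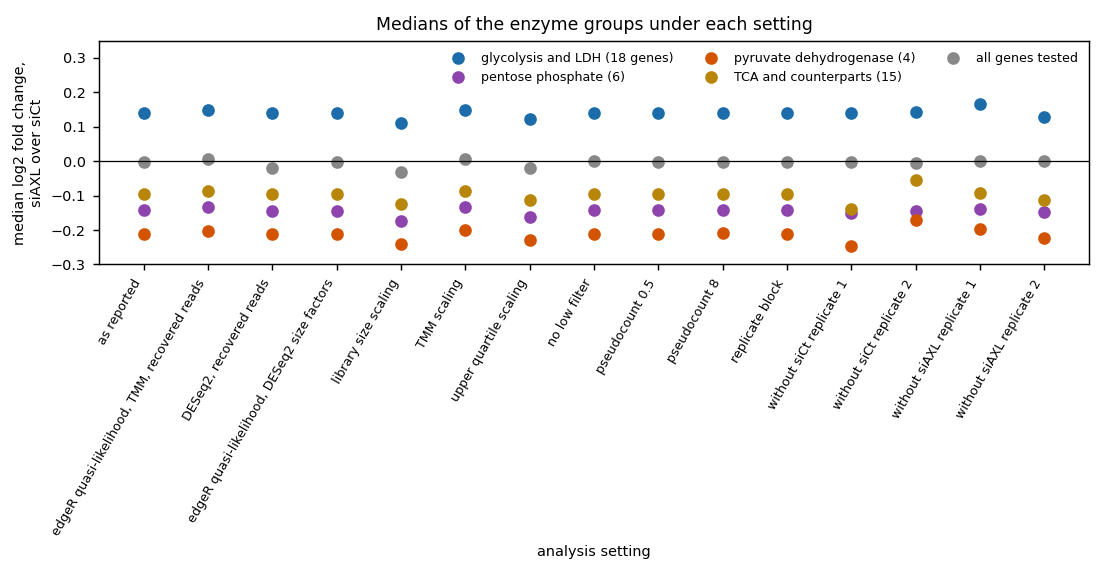
Median log2 fold change of siAXL over siCt (vertical axis) of 4 groups of enzyme transcripts and of all genes tested under each analysis setting (horizontal axis). Glycolysis with lactate dehydrogenase stays above 0 and the 3 other pathways below it in each setting, while all genes lie close to 0.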

How the data were processed

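Total RNA of 4 MDA-MB-231 libraries (2 siCt, 2 siAXL) was sequenced by the authors on an Illumina HiSeq 2000. The submitters' processing notes name CASAVA 1.8, TopHat2 2.0.10, HTSeq 0.5.3, DESeq2 1.4.5 and GRCh37. The strand setting and the annotation are not given in the sources used here. The deposited table lists 63677 genes with 4 columns of signal, normalized counts for which the authors divided the reads of each gene by a size factor from DESeq2. The deposited columns of the authors' comparison (log2 fold changes with their errors, Wald scores and p-values) were not used, and per-sample columns not used numbered 0. In each library 100% of the values were whole multiples of 1 read (tolerance 0.02 reads), so reads were recovered by division, 39574387 to 44585773 in all.

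Genes passing edgeR's filterByExpr on the reads (16064) were tested with limma 3.58.1 in R 4.3.3 (lmFit, then eBayes with trend) on log2(normalized count + 1), without covariates, and called where the p-value adjusted by Benjamini-Hochberg was under 0.05. Fold changes on this scale are understated for low genes. With 2 libraries against 2, an exact two-sided permutation test cannot give a p under 0.333. Alternatives were edgeR 4.0.16 with TMM or DESeq2 size factors and DESeq2 1.42.0 on the reads, 3 other scalings, no low-count filter (27108 genes with at least 1 read), pseudocounts of 0.5 and 8, an adjusted p under 0.01, a replicate block, and each library left out. On the recovered reads edgeR with TMM called 3122 genes and DESeq2 2598. The scripts were tested on simulated data. Isozyme shares used the length of the GENCODE 29 principal transcript, and the alternative of all annotated exons was chosen after seeing the data. GENCODE 29 also gave exon overlaps, matched by Ensembl identifier, and no coordinates of the table are given. Reads of pseudogene copies came to at most 1.60% of the reads of a gene (TPI1).

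The genes, their grouping and the list of further pathway genes were chosen with earlier results of these data known. The text names AXL, the called genes, the isozyme families and the most abundant transcript of each group, and GAPDH, PGLS, PGD, RPE, IDH1, IDH2, ACO1, OGDH, DLST, PCK2, GLUD1, PDK2, PDK3 and PDK4 were added after their values were seen, as were the 4 printed start regions. Values of a few listed genes are not reported here.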

Additional observations from a re-analysis of the deposited data

How the results depend on the processing

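Against 8 enzyme transcripts called higher and 7 lower, the calls numbered 5 and 1 without the low-count filter (all genes called higher 757, all genes called lower 340, 1 further pathway gene higher) and 2 and 0 at an adjusted p under 0.01 (all genes 613 and 246, further pathway genes 1 and 3). With the replicate number as a block they were 16 and 18 (all genes 3737 and 3573, further pathway genes 8 and 14). That block also called transcripts described above as not called, such as HK2, PFKP, ALDOA, TKT and DLD. The labels give the libraries only a number in common. Same-numbered libraries deviated together with r = 0.271 across 16064 genes. Their shares of mitochondrially encoded reads were also alike, at 3.70% (siCt 1) and 3.78% (siAXL 1) against 2.11% (siCt 2) and 2.28% (siAXL 2). With 2 pairs these values do not establish a pairing, and whether there was one was not tested. Leaving out 1 library gave 2 to 6 higher and 0 to 6 lower (all genes 872 to 2158 and 413 to 1742, further pathway genes 3 to 5 and 3 to 9). In these the median log2 fold change over members tested ran from -0.069 to -0.026, against -0.061, and it was -0.090 with library size scaling and -0.079 with upper quartile scaling. By exon union length the isozyme shares changed by 2.89 points for PFKL, -0.519 for ALDOA and -4.71 for IDH1, against 4.16, -0.319 and -3.11, and leaving out 1 library turned the sign for ENO1 (-0.384 to 0.971) and SUCLG2 (-0.200 to 2.25). Leaving out 1 library also turned 4 log2 fold changes that were not called: ENO3 (-0.40 to 0.084, with 0.056 in a further omission), ENO2 (-0.0094 to 0.22), SUCLG2 (-0.21 to 0.025) and IDH3G (-0.058 to 0.018). The causes were not tested. Of the 15 called transcripts, 2 kept their call under every alternative, and 0 reversed. Leaving out 1 library could not reverse them, since their groups did not overlap. With 2 libraries per group the spread of a single gene is poorly known.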

Other observations

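Some relatives of these enzymes had few or no reads. Of the 56 listed regulators and further enzymes, 14 in the table had too few reads for the test, and 9 of these had 0 reads in all 4 libraries. Among these were FBP2, the fructose bisphosphatase of muscle, PKLR, the pyruvate kinase of liver and red cells, PCK1, the cytosolic phosphoenolpyruvate carboxykinase, the testis forms GAPDHS, PGK2 and PDHA2, and TKTL1, a transketolase-like gene. A count of 0 allows up to 3 reads, or 0.0677 and 0.0758 CPM (reads scaled to the library total) in siCt 1 and 2 and 0.0673 in each siAXL library, for counting error only. HK3 and LDHC had 2 reads each over the 4 libraries, PGAM2 had 3, OGDHL 11 and PGAM4 16.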
